A study of Mus musculus with 20 samples.

Results

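Zbtb32 encodes a transcriptional repressor of the BTB zinc finger family, also known as ROG, PLZP and FAZF. It was 1 gene among the 45777 symbols in the table and among the 11794 genes tested. It was selected on measured values, as a gene higher after each single agent with a negative interaction, so its own levels are given as a description with no test. The RNA came from CD8+ T cells that had infiltrated tumours grown from MC38, a mouse colon cancer line, with human PD-L1 overexpressed. All 4 groups used the same humanised mice (hPD-1, hPD-L1 and h4-1BB on C57BL/6), treated once tumours averaged 150 to 200 mm3 and sampled on day 4. The 4 groups had 5 libraries each: Pembrolizumab, an antibody that blocks PD-1; ABL503, a bispecific antibody to PD-L1 and 4-1BB; the Combination of both; and Control. The labels do not say what Control mice received, nor whether each library is a different mouse. A p-value here therefore reflects variation among libraries, which may be technical.

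Lymphocytes carry little Zbtb32 at rest and make it when their antigen receptor is engaged. The protein holds a BTB domain, through which such factors pair and recruit corepressors, and zinc fingers that bind DNA. In mouse T cells it was first known for restraining GATA3 and the cytokine genes under it, and T cells without it respond more strongly to receptor signals. Together with Blimp-1, the product of Prdm1, it represses Ciita in mouse B-lineage cells and Eomes and Cd27 in mouse antiviral CD8+ T cells. Mice lacking it make larger effector and memory CD8+ responses to virus.

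Zbtb32 lies on the minus strand of chromosome 7, at chr7:30589681-30598909 in the GENCODE vM21 annotation of GRCm38, which lists 3 transcripts with 4, 6 and 2 exons. The RefSeq gene of GRCm38.p6 reaches further upstream, to position 30602819. The start regions shown are the 2 that the RefSeq promoter table holds, and neither is at that upstream end. They are given as sequence context, since the values measure RNA from the whole gene and cannot tell which start was used. Each runs from 250 bases before to 50 bases after its start, from RefSeq on GRCm38.p6, and capitals mark CCAAT boxes and E-boxes (CANNTG).
Zbtb32 start 1, chr7:30598860-30599159, minus strand: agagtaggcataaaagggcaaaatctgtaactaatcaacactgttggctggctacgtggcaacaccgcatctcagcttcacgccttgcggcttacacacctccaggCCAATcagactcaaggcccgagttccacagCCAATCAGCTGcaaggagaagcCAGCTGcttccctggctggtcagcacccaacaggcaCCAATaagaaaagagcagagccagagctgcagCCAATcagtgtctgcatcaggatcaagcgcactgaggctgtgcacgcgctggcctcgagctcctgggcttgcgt
Zbtb32 start 2, chr7:30592893-30593192, minus strand: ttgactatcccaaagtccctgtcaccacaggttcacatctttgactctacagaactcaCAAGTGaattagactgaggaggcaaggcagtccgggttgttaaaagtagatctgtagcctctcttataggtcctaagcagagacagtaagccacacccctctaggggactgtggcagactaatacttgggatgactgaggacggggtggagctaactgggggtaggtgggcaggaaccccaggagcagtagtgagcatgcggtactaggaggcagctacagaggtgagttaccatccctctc

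The first window held 4 CCAAT boxes, beginning 144, 114, 56 and 24 bases before the start, all on the gene's strand. One or more CCAAT was present in 37.4% of 32851 RefSeq promoter windows of the same length, and 4 or more in 1.06%. The first window also held 2 E-boxes, both CAGCTG, at 109 and 92 bases before the start, the first of them directly after the CCAAT at 114 without overlap. The second window held 1 E-box and no CCAAT, and at least 1 E-box was present in 72.3% of all windows. Neither window, read on both strands, held the letters of an NFAT core (GGAAA, in 61.3% of windows), an AP-1 site (TGANTCA, 7.81%), a STAT site (TTCNNNGAA, 8.3%), a GATA site (AGATAA, 11.2%), a Blimp-1 core (GAAAG, 57.3%), a GC box (GGGCGG, 35.7%) or a TATA box (TATAAA, 13.6%). The motifs were chosen after the sequence was seen, and letter matches are a description of these windows alone.

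Zbtb32 was lowest in the Control libraries and higher in every treated library. Values are in FPKM, a level corrected for gene length and for library size. In Pembrolizumab libraries 1 to 5 it stood at 72.5, 57.9, 49.4, 39.1 and 50.5 FPKM. In ABL503 libraries it stood at 27.9, 22.6, 32.7, 27.2 and 19.4 FPKM. In Combination libraries it stood at 47.1, 40.3, 28.6, 15.7 and 33.8 FPKM, and in Control libraries at 6.30, 11.6, 8.28, 10.6 and 6.23 FPKM. The lowest treated library, Combination 4, was above the highest Control library, Control 2. In bulk RNA, fewer cells with the transcript and less transcript per cell cannot be told apart.

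**Figure D1:**
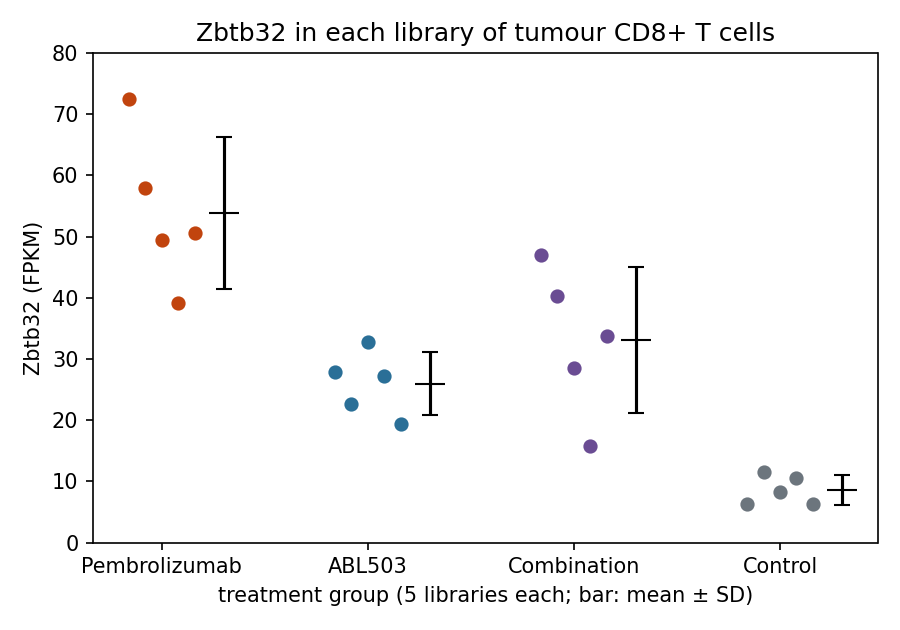
Zbtb32 in FPKM (y axis) in each of the 5 libraries of the 4 treatment groups (x axis), with the mean and SD of each group as a bar. Pembrolizumab libraries sit between 39.1 and 72.5, ABL503 between 19.4 and 32.7, Combination between 15.7 and 47.1, and Control between 6.23 and 11.6.

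The order of the group means was Pembrolizumab, Combination, ABL503 and Control. Zbtb32 averaged 53.9 ± 12.4 FPKM in Pembrolizumab, 33.1 ± 11.9 in the Combination, 26.0 ± 5.12 in ABL503 and 8.59 ± 2.44 in Control (SD, n = 5 each). The treated means were 6.27, 3.85 and 3.02 times that of Control, in the same order. The libraries of the Combination and ABL503, neighbours in that order, overlapped. All 5 ABL503 libraries lay within the Combination range, while 1 Combination library lay within the ABL503 range. Pembrolizumab and the Combination overlapped too, with 2 Combination libraries inside the Pembrolizumab range and 1 Pembrolizumab library inside the Combination range. No ABL503 library reached the lowest Pembrolizumab library. The Combination was the most variable group, with a coefficient of variation of 36.1%, against 23.0% in Pembrolizumab, 19.7% in ABL503 and 28.3% in Control. Differences between groups held 86.4% of the sum of squares of its log2(FPKM + 1) values.

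On the log2(FPKM + 1) scale, Zbtb32 was higher than in Control by 2.52 in Pembrolizumab, by 1.51 in ABL503 and by 1.78 in the Combination (SE 0.236 each). Among the 11794 genes these differences ranked 4, 30 and 22 from the top. ABL503 differed from Pembrolizumab by -1.02, the Combination from Pembrolizumab by -0.74 and the Combination from ABL503 by 0.27. The Combination values turn on single libraries: the difference from ABL503 was 0.51 without Combination 4 and 0.13 without Combination 1. The share of genes at 1 FPKM or more that lay below Zbtb32 was 82.1 to 88.4% in Pembrolizumab, 70.4 to 78.6% in ABL503, 66.2 to 83.4% in the Combination and 45.1 to 60.6% in Control libraries.

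The interaction measures how far the Combination departs from the sum of the single-agent differences. For Zbtb32 it was -2.25 (SE 0.334). That value ranked 20 from the lowest among the 11794 genes tested, and 12 among the 5608 whose log2(FPKM + 1) averaged at least 3. Had the log2 differences added, the Combination would have averaged 7.26, whereas it averaged 5.01. Had the FPKM differences added, it would have averaged 71.2 FPKM, from which its mean differed by -38.1 FPKM. On either scale the Combination mean therefore lay below the sum. On both it also lay below the mean of Pembrolizumab alone, though libraries of these groups overlapped. Leaving out 1 library at a time kept the interaction between -2.40 and -2.02. Zbtb32 was chosen for a negative interaction, so its sign and its stability restate that choice, and these values are a description.

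Few genes shared this pattern. Called higher in Pembrolizumab, called higher in ABL503 and called negative in the interaction were 7 of 11794 genes, or 0.0594%, Zbtb32 included. A call is an adjusted p under 0.05 in limma with Benjamini-Hochberg adjustment over all tested genes. The other 6 were Ms4a4a, a membrane-spanning protein; Gm9845, a predicted gene model; Hspd1, the mitochondrial chaperonin HSP60; Mrps6, a mitochondrial ribosomal protein; Hsp90ab1, the cytosolic chaperone HSP90-beta; and Plp2, a membrane proteolipid. Their interactions were chosen by that threshold and ran from -1.63 for Ms4a4a to -0.63 for Plp2, all smaller in size than that of Zbtb32. The count depends on single libraries. It was 2 without Pembrolizumab 1 or Pembrolizumab 5, 12 without Pembrolizumab 4, and between 3 and 8 without any one of the other libraries.

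Ms4a4a had the interaction nearest in size to that of Zbtb32 among these 6. It had 27.9, 32.4, 38.0, 22.1 and 20.7 FPKM in Pembrolizumab, 23.9, 13.2, 17.5, 26.5 and 24.6 in ABL503, 23.7, 23.5, 17.1, 21.8 and 25.8 in the Combination, and 4.72, 7.68, 8.97, 5.45 and 13.4 in Control libraries. Only ABL503 2, at 13.2 FPKM, fell below the highest Control library. The chaperonin Hspd1 had another order, with 134.9 ± 29.8 FPKM in ABL503, 90.5 ± 13.9 in Pembrolizumab, 81.8 ± 10.1 in the Combination and 63.1 ± 6.29 in Control (SD, n = 5 each). Hsp90ab1 followed the same order as Hspd1. Zbtb32, Ms4a4a and Plp2 were highest in Pembrolizumab, and the other 4 genes in ABL503.

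**Figure D2:**
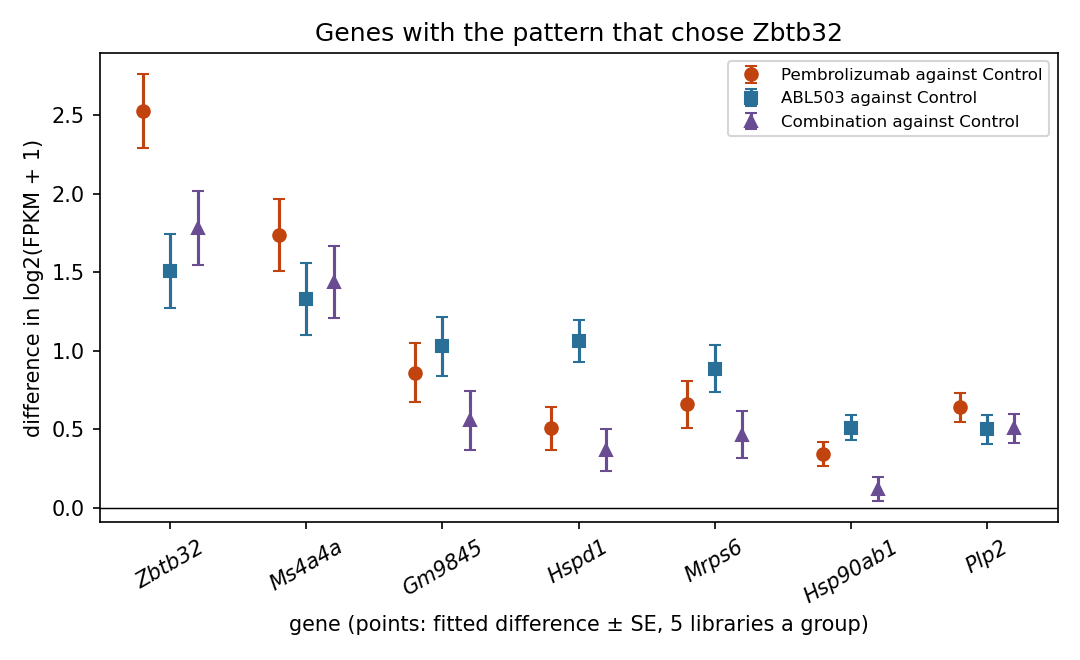
Difference from Control in log2(FPKM + 1) (y axis, fitted difference with its SE) for the 7 genes with the pattern (x axis), after Pembrolizumab, ABL503 and the Combination, 5 libraries a group. Zbtb32 has the highest point of each treatment, 2.52, 1.51 and 1.78, and in all 7 genes the Combination lies well below the sum of the other 2 points.

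Among the BTB zinc finger genes listed for this comparison, Zbtb32 was the most abundant and the most variable over these 20 libraries. Of the 45 listed members in the table, Zbtb32 included, it ranked first. It averaged 30.4 FPKM over the 20 libraries, ahead of Zbtb1 with 14.3, Zbtb25 with 13.3 and Zbtb11 with 12.8. It ranked 1 in each treated group and 6 in Control. Its SD over the libraries was 1.01 on the log2(FPKM + 1) scale, followed by Zbtb46 with 0.665. Zbtb32 was chosen for its differences between these groups, so its wide spread restates that choice. Its first rank by mean likewise rests on the treated groups. Its close relative Zbtb16, which encodes PLZF, did not exceed 0.116 FPKM in any library.

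Zbtb32 is left out of the counts that follow. Against Control, 3 of the 25 other tested members were called in Pembrolizumab, each of them lower, where 5.55% of all tested genes were called. None was called in ABL503 (0.619% of all genes), and 3 were called in the Combination, 1 higher and 2 lower (12.6% of all genes). The 3 members are 12% of those tested, near the share of all genes in the Combination. In Pembrolizumab the call of Patz1 was lost without any one of 7 libraries and that of Zbtb9 without any one of 6. In the Combination the call of Zbtb46 was lost without any one of 5. Zbtb24, whose human counterpart is mutated in an immunodeficiency syndrome, fell by 0.62 in Pembrolizumab (SE 0.14, adjusted p = 0.0139, limma) and by 0.51 in the Combination (adjusted p = 0.023), the second of which was lost without Combination 2 or Control 1. Zbtb46, a regulator of classical dendritic cells, was the member with the widest spread after Zbtb32. It averaged 6.84 ± 0.968 FPKM in ABL503, 6.33 ± 1.90 in the Combination, 2.14 ± 0.905 in Pembrolizumab and 3.31 ± 1.24 in Control (SD, n = 5 each), so its highest groups were not those of Zbtb32. It was higher in ABL503 than in Pembrolizumab by 1.36 (SE 0.22, adjusted p = 0.00501), a comparison that called 1.28% of all genes. None of these 25 members was called in the interaction, where 0.203% of genes were.

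**Figure D3:**
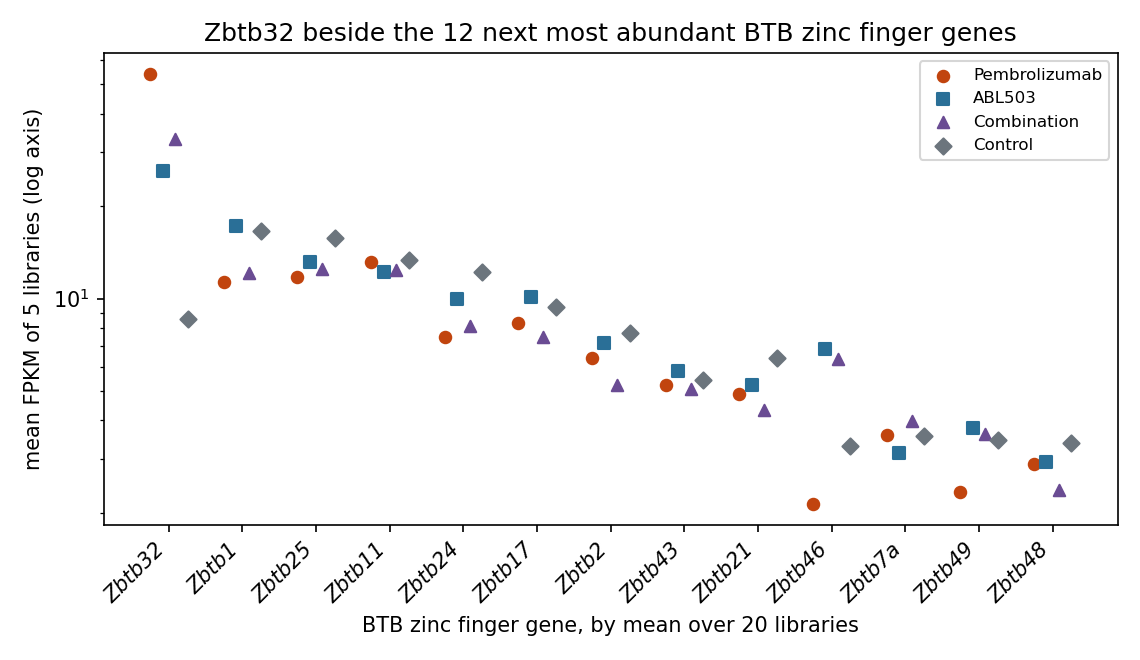
Mean FPKM of 5 libraries on a log axis (y axis), by treatment group. The genes (x axis) are Zbtb32 and the 12 next most abundant BTB zinc finger genes of those listed. Zbtb32 spans 53.9 in Pembrolizumab to 8.59 in Control, whereas the 4 group means of Zbtb1 lie between 11.3 and 17.3.

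Of 9 partners of Zbtb32 listed, 7 were tested. Against Control, none was called in Pembrolizumab or ABL503, where 5.55% and 0.619% of all tested genes were called, and 2 were called in the Combination, or 28.6% beside 12.6% of all genes. Prdm1, which encodes Blimp-1, had 9.80, 7.93, 12.1, 7.12 and 9.50 FPKM in Pembrolizumab, 7.92, 9.40, 13.1, 8.61 and 9.95 in ABL503, 8.04, 9.77, 9.11, 6.63 and 8.66 in the Combination, and 7.17, 7.22, 8.35, 6.92 and 9.02 in Control libraries. The groups overlapped, and the differences from Control were 0.22, 0.29 and 0.11 (SE 0.14, adjusted p = 0.408, 0.462 and 0.652 in limma). Hdac1, a histone deacetylase that forms repressor complexes, rose by 0.40 in the Combination (SE 0.10, adjusted p = 0.0117), where it averaged 71.7 ± 10.03 FPKM, against 54.0 ± 5.66 in Control (SD, n = 5 each). Fancc, whose human product binds FAZF, averaged 2.22 ± 0.466 FPKM in Pembrolizumab, 1.55 ± 0.454 in ABL503, 2.33 ± 0.530 in the Combination and 2.19 ± 0.781 in Control, and was not called in any comparison. Txnip, Ncor1 and Sin3a were not called either, with differences from Control between -0.40 and 0.19, and Zbtb16 was too low to test.

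Gata3, the T-cell factor that Zbtb32 restrains and also binds, was called lower in the Combination against Control. It had 14.8, 11.4, 16, 9.80 and 10.8 FPKM in the Combination, against 21.3, 19.3, 15.7, 18 and 14.1 FPKM in Control libraries. The ranges overlap through Combination 1 and 3 and Control 3 and 5. It fell by 0.47 (SE 0.15, adjusted p = 0.0423), a call lost without any one of Combination 2, 4 or 5 or Control 1, 2 or 4, with the highest adjusted p at 0.109 without Control 1. In Pembrolizumab and ABL503, where the differences from Control were 0.05 and 0.04, it averaged 18.3 FPKM in both, against 17.7 in Control.

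Of 8 reported targets, 4 were abundant enough to test: Gata3, Eomes, Cd27 and Il2. Eomes, a T-box factor of effector and memory cells, averaged 10.7 ± 1.25 FPKM in Pembrolizumab, 11.9 ± 0.875 in ABL503, 9.42 ± 3.51 in the Combination and 10.7 ± 2.72 in Control (SD, n = 5 each). Cd27, a costimulatory receptor, averaged 56.3 ± 9.88, 56.7 ± 4.50, 58.4 ± 15.2 and 59.8 ± 9.82 FPKM in the same order of groups. The groups overlapped for both genes, and neither was called in any of the 7 comparisons, with adjusted p from 0.264 to 0.994 in limma. Their differences from Control lay between -0.19 and 0.18, beside 1.51 to 2.52 for Zbtb32 itself.

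Il2, the growth factor that T cells lacking Zbtb32 make in excess, was the target with the largest differences. It had 1.95, 2.85, 3.32, 2.19 and 1.54 FPKM in Pembrolizumab, 5.43, 8.74, 13.3, 8.57 and 7.83 in ABL503, 0.245, 0.709, 0.973, 0.238 and 1.82 in the Combination, and 3.27, 14.4, 1.97, 7.67 and 5.22 in Control libraries. Every Combination library lay below every Control library, and every ABL503 library above every Pembrolizumab library. Il2 fell by 1.90 in the Combination against Control (SE 0.34, adjusted p = 0.00128) and by 2.47 against ABL503 (adjusted p = 0.000491), a comparison that called 4.53% of genes. It was higher in ABL503 than in Pembrolizumab by 1.51 (adjusted p = 0.0313), but this call was lost without any one of 7 libraries, ABL503 2, 3, 4 or 5 or Pembrolizumab 1, 4 or 5, and with a pseudocount of 0.1. Neither ABL503 nor Pembrolizumab was called against Control for Il2, with differences of 0.57 and -0.95 (adjusted p = 0.559 and 0.106). The type 2 cytokines were at or near 0: Il4 was listed at 0 in all 20 libraries, Il5 was above 0 in Pembrolizumab 1 and 3 only, and Il13 in ABL503 1 to 4 only.

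**Figure D4:**
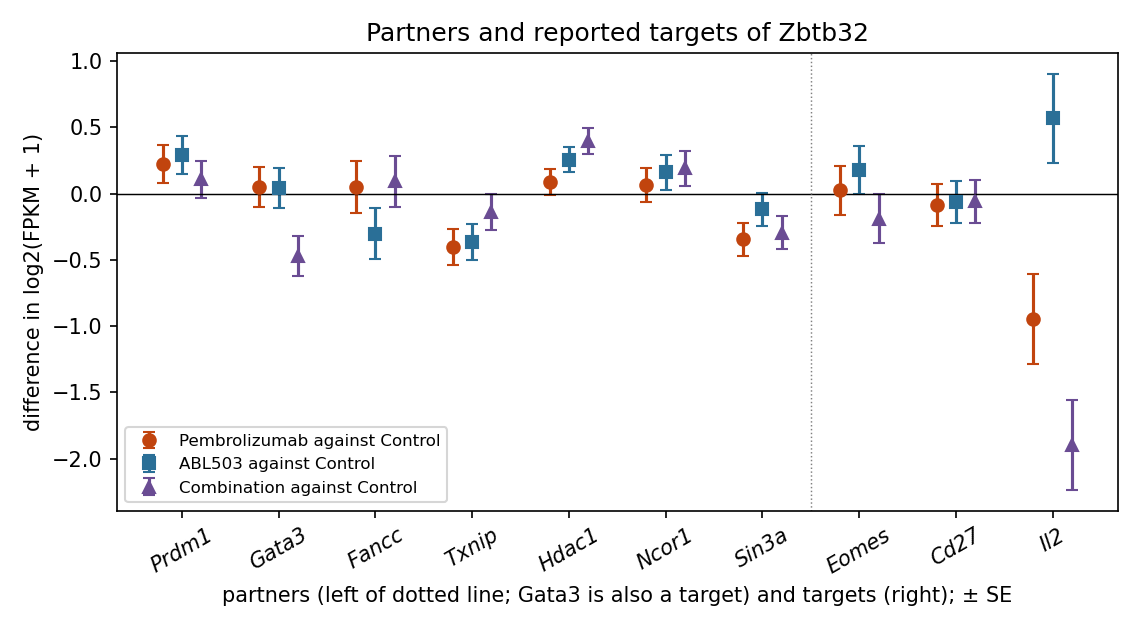
Difference from Control in log2(FPKM + 1) (y axis, fitted difference with its SE, 5 libraries a group) for the partners of Zbtb32 (left of the dotted line) and its other reported targets (right), after Pembrolizumab, ABL503 and the Combination. Most points lie within 0.5 of 0, and Il2 in the Combination, at -1.90, lies farthest from it.

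Ciita, the switch for MHC class II genes, was between 0 and 0.149 FPKM in every library and was not tested. The class II genes under it were nonetheless detected, and 3 of 8 tested were called in Pembrolizumab, none in ABL503 and 5 in the Combination against Control, each of them lower. That is 37.5%, 0 and 62.5% of them, beside 5.55%, 0.619% and 12.6% of all tested genes. Their median difference from Control was -0.853, -0.13 and -1.34, beside medians over all tested genes of -0.0281, -0.00804 and -0.0357. Cd74, the invariant chain, had 42.0, 50.3, 31.8, 69.3 and 20.9 FPKM in Pembrolizumab, 147.5, 169.6, 117.5, 90.8 and 79.5 in ABL503, 34.3, 41.8, 13.9, 36.5 and 22.9 in the Combination, and 97.9, 97.6, 196.8, 113.0 and 67.8 in Control libraries. It fell by 1.42 in Pembrolizumab (SE 0.32, adjusted p = 0.0139) and by 1.91 in the Combination (adjusted p = 0.000875), and differed by 0.11 in ABL503 (adjusted p = 0.936). The Pembrolizumab call was lost with no filter on low values. No class II gene was called in the interaction.

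Markers of cells that present antigen are given beside the class II genes. The 5 B-cell markers summed to 1.13 to 3.02 FPKM in Pembrolizumab, 0.778 to 3.48 in ABL503, 0.276 to 4.08 in the Combination and 1.70 to 7.29 in Control libraries. The 6 dendritic markers, Zbtb46 among them, summed to 9.79 to 15.6, 15.6 to 30.2, 12.5 to 17.1 and 11.6 to 22.5 FPKM in the same order, with Flt3 and Clec9a averaging under 1. The 8 macrophage and monocyte markers summed to 24.5 to 64.7, 24.6 to 58.8, 19.5 to 32.4 and 14.3 to 104 FPKM, and 5 of them averaged under 1. The part of these cells in the class II values was not tested.

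Genes that carry or follow the signals known to induce Zbtb32, from the antigen receptor through NFAT to cytokine receptors, were called in both directions. Of 23 tested, 4 were called in Pembrolizumab (3 higher, 1 lower), 1 higher in ABL503 and 4 in the Combination (1 higher, 3 lower), with median differences of 0.0295, -0.0274 and -0.128. These are 17.4%, 4.35% and 17.4% of the list, beside 5.55%, 0.619% and 12.6% of all tested genes, so the Combination share was near that of all genes. Batf3, an AP-1 family factor, was the gene called after both single agents. It averaged 5.91 ± 2.54 FPKM in Pembrolizumab, 7.41 ± 2.73 in ABL503, 4.54 ± 2.62 in the Combination and 1.76 ± 1.10 in Control (SD, n = 5 each). It rose by 1.30 in Pembrolizumab (SE 0.32, adjusted p = 0.0209) and by 1.62 in ABL503 (adjusted p = 0.0163), and its difference in the Combination was 0.97 (adjusted p = 0.0515). The first call was lost without Pembrolizumab 1, 2 or 5, and the second without ABL503 3 or 5 or Control 2. Il2ra, the inducible IL-2 receptor chain, rose by 1.05 in Pembrolizumab (SE 0.20, adjusted p = 0.00568) and by 0.83 in the Combination (adjusted p = 0.0121), while its difference in ABL503 was 0.58 (adjusted p = 0.267).

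Nr4a1, an immediate early gene of receptor signalling, had a lower mean in each treated group than in Control. It averaged 12.8 ± 2.47 FPKM in Pembrolizumab, 16.4 ± 5.12 in ABL503, 10.9 ± 3.62 in the Combination and 22.2 ± 5.54 in Control (SD, n = 5 each), and fell by 0.98 in the Combination (SE 0.22, adjusted p = 0.00694). Its differences of -0.73 in Pembrolizumab and -0.42 in ABL503 did not pass (adjusted p = 0.0581 and 0.504). Stat4, which relays interleukin 12, was the 1 gene of all 6 lists called in the interaction, and its sign was opposite to that of Zbtb32. It fell by 0.66 in Pembrolizumab against Control (SE 0.09, adjusted p = 0.000436), and its interaction was 0.75 (SE 0.13, adjusted p = 0.0226), lost without Pembrolizumab 1 or Combination 3. It was higher in the Combination than in Pembrolizumab by 0.47 (adjusted p = 0.0431), a comparison that called 0.161% of genes. That call was lost without any one of Combination 2 to 5 or Pembrolizumab 1, 3, 4 or 5.

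The next list held regulators of the effector and memory fates that Zbtb32 limits. Of 14 tested, 4 were called in Pembrolizumab (1 higher, 3 lower), none in ABL503 and 7 in the Combination (1 higher, 6 lower), with median differences of -0.313, -0.0227 and -0.368. The shares were 28.6%, 0 and 50% of the list, beside 5.55%, 0.619% and 12.6% of all tested genes. Zeb2, a factor of terminal effector cells, rose by 1.01 in Pembrolizumab (SE 0.16, adjusted p = 0.00098) and by 0.73 in the Combination (adjusted p = 0.00523). Tcf7, which encodes the memory and stem-like factor TCF-1, averaged 11.9 ± 5.70 FPKM in Pembrolizumab, 24.9 ± 10.6 in ABL503, 9.49 ± 5.88 in the Combination and 36.5 ± 14.04 in Control (SD, n = 5 each). It fell by 2.0 in the Combination (SE 0.42, adjusted p = 0.00413) and by 1.61 in Pembrolizumab (adjusted p = 0.0278), a call lost in Pembrolizumab without Pembrolizumab 1 or 4 or Control 1 or 4. Id3, another memory regulator, fell by 2.06 in the Combination (SE 0.27, adjusted p = 7.19e-05) and by 1.43 in Pembrolizumab (adjusted p = 0.00458). In ABL503, Zeb2, Tcf7 and Id3 differed by 0.56, -0.56 and -0.50 and did not pass.

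Over all 6 lists, 80 genes other than Zbtb32 were tested. Against Control, 14 were called for Pembrolizumab, 1 for ABL503 and 22 for the Combination, which is 17.5%, 1.25% and 27.5% of them, beside 5.55%, 0.619% and 12.6% of all tested genes. Of these calls, 10 of 14 in Pembrolizumab and 18 of 22 in the Combination were lower, and the 1 in ABL503 was higher. The lists were chosen with earlier results of these data known, so a share above that of all genes can follow from that choice. The 3 comparisons share the Control libraries. With no filter on low values, the calls of Batf3 after both single agents, of Tcf7 in Pembrolizumab, of Zbtb24, Zbtb46 and Gata3 in the Combination, and of Stat4 in the interaction were lost as well. The Pembrolizumab count was 7 without Pembrolizumab 1, 8 without Pembrolizumab 5 and 9 without Control 1 or 4, and the Combination count was 14 without Combination 2 or Control 1.

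Likeness to Zbtb32 was measured as Pearson's r of log2(FPKM + 1) over the 20 libraries, which share the 4 groups, so that any gene low in Control and high in Pembrolizumab gives a high r. Genes were named only where log2(FPKM + 1) averaged 3 or more and the symbol was no predicted model or the like, which held for 4904. The 10 of these with the highest r were Serpinb6b, a serpin protease inhibitor (0.903), Fkbp1a, the FK506-binding protein (0.902), Gzmb, granzyme B (0.869), Ergic1, of the compartment between endoplasmic reticulum and Golgi (0.866), Prf1, perforin (0.858), Ola1, an ATPase (0.855), Havcr2, the checkpoint receptor TIM-3 (0.855), Irf8, a transcription factor (0.854), Asns, asparagine synthetase (0.845), and Plp2 (0.839). Spearman's rho for these 10 ran from 0.755 to 0.899. Without the 2 libraries farthest from the median of Zbtb32, Control 5 and Control 1, r ran from 0.766 to 0.905. Among all 11793 other tested genes, an r of 0.8 or more was reached by 23 and one of -0.8 or less by 11, and the median was -0.0534.

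The lowest r among the same genes belonged to Fbxo8, an F-box protein (-0.865), Qpct, glutaminyl cyclase (-0.847), Gimap6, a lymphocyte GTPase (-0.831), Emb, the membrane protein embigin (-0.819), and Csnk1g3, a casein kinase (-0.815). Gimap6 differed from Control by -0.51 after Pembrolizumab, -0.48 after ABL503 and -0.49 after the Combination, nearly equal values beside the 2.52, 1.51 and 1.78 of Zbtb32.

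Subtracting the group means shows how far a gene varied with Zbtb32 from library to library inside groups. Of the 10 genes named for a high r, Serpinb6b kept 0.817 and Ergic1 0.809. Ola1 had 0.516, Fkbp1a 0.507, Asns 0.498, Gzmb 0.495, Prf1 0.341, Havcr2 0.327, Plp2 0.183 and Irf8 0.170. Serpinb6b had 217, 166, 138, 116 and 159 FPKM in Pembrolizumab, 147, 128, 122, 122 and 112 in ABL503, 169, 149.7, 133, 98.1 and 166 in the Combination, and 90.1, 93.4, 100.3, 106 and 81.5 in Control libraries. The lowest Serpinb6b library in each group was that of Zbtb32 too, as was the highest, number 1, in Pembrolizumab and the Combination. In ABL503 and Control the highest Serpinb6b libraries were numbers 1 and 4, against 3 and 2 for Zbtb32. Gzmb averaged 2246 ± 301 FPKM in Pembrolizumab, 1017 ± 142 in ABL503, 2122 ± 686 in the Combination and 633 ± 162 in Control (SD, n = 5 each), so that, unlike Zbtb32, its Combination and Pembrolizumab means were close.

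After subtracting group means, the highest r among the genes eligible for naming was that of Dusp4 (0.830), a phosphatase that turns off MAP kinases. Dusp4 had 24.2, 17, 20.002, 19.2 and 19.9 FPKM in Pembrolizumab, 16.6, 15.8, 19.7, 19.96 and 16.2 in ABL503, 19.8, 19.9, 13.2, 9.86 and 13.8 in the Combination, and 13.2, 18.2, 12.1, 14.6 and 9.54 in Control libraries. It was not called in any comparison, and its r before the subtraction was 0.745. The next were Rae1, an mRNA export factor (0.776), and P4hb, a protein disulphide isomerase (0.775), after Serpinb6b and Ergic1. The lowest of the eligible genes was Nmb, neuromedin B (-0.772). Combination 4, the treated library with the least Zbtb32, carried part of these values, which without it were 0.749 for Dusp4, 0.716 for Serpinb6b, 0.762 for Ergic1, 0.645 for Rae1 and 0.664 for P4hb. After subtraction, 17 of all tested genes had an r of 0.7 or more and 22 of -0.7 or less. The genes named for this measure are the extremes of 4904, and how many such values chance alone gives was not tested.

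**Figure D5:**
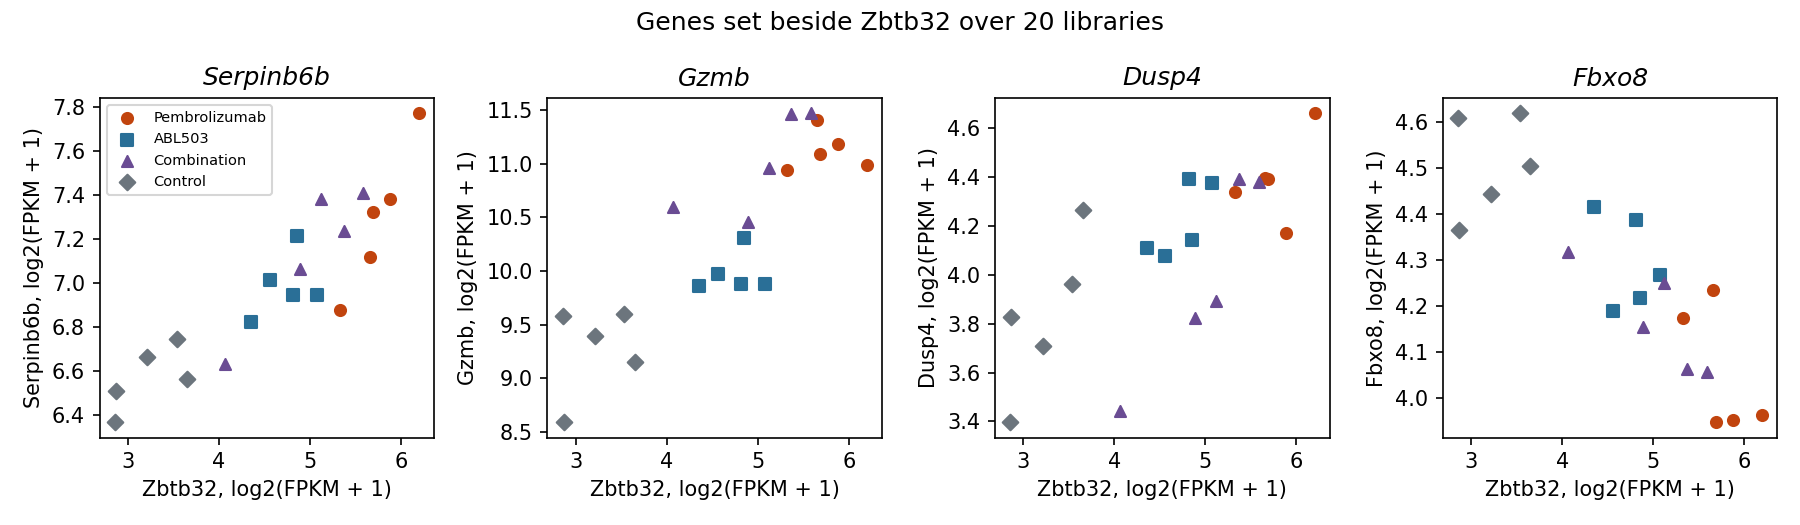
Values of 4 genes (y axes) against Zbtb32 (x axes), both in log2(FPKM + 1), in 20 libraries marked by treatment group. Serpinb6b (r 0.903) and Dusp4 (0.745, or 0.830 after subtracting group means) rise with Zbtb32 also inside groups, Gzmb separates mainly by group, and Fbxo8 runs downward (r -0.865).

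The 5 CD8 T-cell markers summed to 2370 to 4800 FPKM over the 20 libraries, and Cd4 averaged 0.291 FPKM. Some genes of other cells were well above that. The immunoglobulin genes Igkc and Ighm averaged 129 and 36.4 FPKM, with Igkc reaching 330 FPKM, and Lyz2, of myeloid cells, averaged 13.2 FPKM and reached 64.9. The 5 plasma-cell markers summed to 97.3 to 348 FPKM in Pembrolizumab, 126 to 372 in ABL503, 40.1 to 290 in the Combination and 131 to 210 in Control libraries, with Jchain, Sdc1 and Mzb1 averaging under 1. The 7 NK-cell markers, a list relevant because NK cells also use Zbtb32, summed to 555 to 1220 FPKM in Pembrolizumab, 170 to 516 in ABL503, 225 to 596 in the Combination and 225 to 423 in Control libraries. That sum had an r of 0.54 with Zbtb32, and of 0.0002 after subtracting group means. It was carried by Gzma, Klre1 and Eomes, genes that CD8+ T cells also express, while Ncr1, Klrb1c, Klra8 and Klra4 averaged under 1 FPKM. The plasma-cell sum had an r of 0.0138 with Zbtb32, and of 0.355 after subtracting group means. In the same order, r was -0.0416 and -0.0902 for the macrophage and monocyte sum, and 0.254 and -0.375 for the CD8 T-cell sum. It was -0.424 and -0.393 for the B-cell sum, and -0.304 and -0.0088 for the dendritic sum. For the CD4 and regulatory T-cell markers it was -0.201 and -0.412, and for tumour epithelium and stroma -0.0472 and 0.14. The part of these cells in the Zbtb32 levels was not tested. From 10511 to 11313 genes reached 1 FPKM per library, a count whose r with Zbtb32 was -0.588, and -0.513 after subtracting group means, and its part in the levels was not tested.

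Of the 20 other genes within 100 kb of Zbtb32, 10 were tested and none was called in any of the 7 comparisons, which called between 0.161% and 12.6% of all genes, so that few or no calls among 10 genes are near the background. Kmt2b, a histone methyltransferase and the next protein-coding gene downstream, averaged 1.91 FPKM, and Cox6b1, a respiratory chain subunit, averaged 550 FPKM. Upk1a, the next one upstream, differed from Control by 0.74 in Pembrolizumab (SE 0.29, adjusted p = 0.145), 0.20 in ABL503 and -0.11 in the Combination. The noncoding gene Gm32082 overlaps the end of Zbtb32 by 680 bases, and whether counting used strand is not given in the sources used here. It averaged 0.536 FPKM and reached 1.19 at most, below the lowest Zbtb32 value of 6.23.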

How the data were processed

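RNA was measured in 20 libraries made with SMART-Seq v4, per the labels' protocols. The submitters' processing notes name HISAT2, StringTie and the build GRCm38 (mm10); versions and annotation are not given in the sources used here. The deposited values are taken to be FPKM, as inferred from the values, with column sums from 575918 to 654333. Depth is unknown, so precision rests on the spread between libraries.

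The 11794 genes that reached 1 FPKM in 5 or more libraries were tested, and log2(FPKM + 1), which understates changes of low genes, was fitted with limma 3.58.1 in R 4.3.3. The fit had 1 mean per group, an intensity trend, 16 residual degrees of freedom and two-sided Benjamini-Hochberg adjusted p-values over all genes. It was tested on simulated data. Summaries used Python 3.11.15 and pandas 2.3.3. Alternatives were no filter, a pseudocount of 0.1, a threshold of 0.1 on the adjusted p, quantile normalization, equal sums, array weights, a replicate block, a fit on the compared groups alone, and leaving out libraries.

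Named genes were Zbtb32, its listed partners and targets, up to 4 tested members with the smallest p of each other list, genes with its pattern, and the 10 highest and 5 lowest r over the libraries, or 5 and 5 after subtracting group means, among genes averaging at least 3. Other genes, such as neighbours and family members by level, were named after their values were seen. Members and lists were chosen with earlier results of these data known. Some listed genes are not reported here.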

Additional observations from a re-analysis of the deposited data

Results flagged for a closer look

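For Zbtb32 and 20 other genes whose levels are given, 84 groups of 5 libraries were looked at for a library standing apart, which chance gives in about 1 in 20. In 4 of them a library stood apart. Fancc was low in ABL503 1, at 0.739 FPKM with the next at 1.68, a gap of 0.87 of the group's range, and in Control 2, at 0.819 FPKM with the next at 2.32, a gap of 0.777 of the range. Batf3 was high in Control 3, at 3.67 FPKM with the next at 1.56, and Gzmb in ABL503 1, at 1266 FPKM with the next at 1007. No library stood apart for Zbtb32 itself.

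For 7 named genes other than Zbtb32 the difference the Combination made departed from the sum of the single agents, tested as the interaction in limma. All but Stat4 were named because this interaction was called negative, so their values restate that choice and are a description. It was -0.73 for Hsp90ab1 (adjusted p = 0.00461) and -1.20 for Hspd1 (adjusted p = 0.00884), and both calls were kept without any 1 of the 20 libraries. It was -1.63 for Ms4a4a (adjusted p = 0.0359), -1.33 for Gm9845 (adjusted p = 0.0364), -1.08 for Mrps6 (adjusted p = 0.0342) and -0.63 for Plp2 (adjusted p = 0.0495), and these 4 were lost without any one of 13 to 15 libraries. It was 0.75 for Stat4 (adjusted p = 0.0226), the positive one among them.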

How the results depend on the processing

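Every difference of Zbtb32 kept its sign under every alternative run. Because the gene was chosen for its pattern over these groups, that stability largely restates the choice and is a description. Leaving out 1 library at a time gave 2.41 to 2.63 for Pembrolizumab, 1.41 to 1.61 for ABL503 and 1.64 to 2.02 for the Combination, each against Control. It gave -1.12 to -0.91 for ABL503 against Pembrolizumab, -0.89 to -0.51 for the Combination against Pembrolizumab and 0.13 to 0.51 against ABL503. No result reversed, and 63 of 96 named calls were kept in every alternative. Counts of called genes moved by over 1.5 times in places, and the cause was not tested. The comparisons below run in the order Pembrolizumab, ABL503 and Combination against Control, ABL503 and Combination against Pembrolizumab, Combination against ABL503, and the interaction, with 655, 73, 1484, 151, 19, 534 and 24 genes called. With no filter, more genes were tested and 321, 42, 939, 67, 3, 271 and 6 were called. At an adjusted p under 0.1 the counts were 1154, 115, 2295, 314, 99, 1063 and 79. With array weights, 301, 85, 935 and 50 were called in the last 4 comparisons. With only the groups compared, 406 were called in Pembrolizumab against Control and 3 in the Combination against Pembrolizumab. Without Control 1 and ABL503 3, the libraries of lowest array weight and an alternative chosen after seeing the data, 37 were called in ABL503 against Control, and 89, 32 and 7 for ABL503 against Pembrolizumab, the Combination against Pembrolizumab and the interaction. Leaving out 1 library gave 383 to 707, 40 to 72, 958 to 1659, 54 to 218, 6 to 49, 271 to 752 and 6 to 49.

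Of the 80 list genes, 14, 1, 22, 6, 2, 7 and 1 were called. With no filter 6 were called for Pembrolizumab, 0 for ABL503 and 13 for the Combination, each against Control, 1 in ABL503 and 0 in the Combination against Pembrolizumab, and 0 in the interaction. Array weights gave 12 for the Combination against ABL503, quantile normalization gave 1 for the Combination against Pembrolizumab, and only the groups compared gave 2 for ABL503 against Control and 0 for the Combination against Pembrolizumab. Without the pair of lowest weight, 0 were called in ABL503 against Control and 2 in ABL503 against Pembrolizumab. Leaving out 1 library gave 7 to 14, 0 to 2, 14 to 27, 1 to 5, 0 to 3, 5 to 12 and 0 to 2. Genes with the pattern of Zbtb32 numbered 2 with no filter, 12 with array weights, 2 without the pair of lowest weight, and 2 to 12 without 1 library, against 7.

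The replicate numbers are not known to pair the samples: deviations of same-numbered libraries had correlations from -0.146 to 0.107. With the replicate block, 3 list genes were called in ABL503 and 1 in the Combination against Pembrolizumab, 4 genes had the pattern, and 11 of 96 named calls were lost. Depth is unknown, so how far low genes such as Il5, Il13 and Ciita are limited by it was not assessed.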
